A study of Homo sapiens with 8 samples.

Results

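Collagen prolyl and lysyl hydroxylation was followed across the transcriptomes of 2 lung adenocarcinoma cell lines through 7 genes. They are *P4HA1*, *P4HA2*, *P4HB*, *PLOD1*, *PLOD2*, *PLOD3* and *SERPINH1*, all found among the 57815 gene identifiers measured. The genes were grouped by their function, and the group was proposed from 2 values of these same libraries, the rise of *P4HA2* with DEM in ABC1 cells but not in HCC4006 cells and the fall of *SERPINH1* in HCC4006 cells. Those values are therefore given as a description without a test, and the tests of the response to DEM concern the other genes and *SERPINH1* in ABC1.

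ABC1 and HCC4006 are established lines that carry no mutation of *KEAP1* or *NRF2*, so that the electrophile diethyl maleate (DEM) can activate NRF2 in them. Cells received DEM at 100 μM or its vehicle DMSO for 16 h, and each of the 4 groups, ABC1 with vehicle, ABC1 with DEM, HCC4006 with vehicle and HCC4006 with DEM, held 2 libraries, numbered 0 and 1. Expression is given as FPKM, the fragments of a gene scaled by its transcript length and by the size of the library. Genes count as called where limma, fitted to log2(FPKM + 1), gave a Benjamini-Hochberg adjusted p below 0.05 across the whole table. Groups of 2 libraries are too small for a permutation test of one gene, whose smallest exact two-sided p is 0.333, so all tests below are those of limma.

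Collagen chains are modified in the endoplasmic reticulum before they are secreted. Prolyl 4-hydroxylase, a tetramer of catalytic alpha subunits (*P4HA1* or *P4HA2*) and of the beta subunit protein disulfide isomerase (*P4HB*), makes the hydroxyproline that keeps the triple helix stable at body temperature. Lysyl hydroxylases (*PLOD1*, *PLOD2*, *PLOD3*) make the hydroxylysine used for sugar attachment and for cross-links, and *PLOD2* is known for the hydroxylation of telopeptides that precedes stable cross-links. These enzymes use iron, 2-oxoglutarate and ascorbate. *SERPINH1* encodes HSP47, a collagen-specific chaperone and a known target of the heat shock response, whereas *P4HA1*, *P4HA2* and *PLOD2* are known as hypoxia-inducible genes.

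The libraries responded to DEM as a group. *NQO1*, a quinone reductase induced by NRF2, and *HMOX1*, the inducible heme oxygenase, rose in both lines, *HMOX1* from between 17.3 and 20.1 to between 174 and 182 FPKM in ABC1. The call of *NQO1* in ABC1 (adjusted p = 0.0422 by limma) was lost without any single ABC1 library, with adjusted p from 0.0681 without DEM replicate 0 to 0.284 without vehicle replicate 0. All libraries showed the epithelial markers *EPCAM*, *CDH1*, *KRT8*, *KRT18* and *KRT19*, with a summed level of the 9 listed markers between 3501 and 5826 FPKM. This sum was lower with DEM in both lines. Of the 8 listed markers tested in HCC4006, *KRT7*, *KRT8* and *KRT18* were called lower, at 0.704, 0.727 and 0.756 times the vehicle mean. Of all genes there, 10.7% were called lower. In ABC1 these keratins were at 0.477, 0.686 and 0.638 times, also without overlap, and were not called. Of all genes, 28.2% in ABC1 and 35.3% in HCC4006 were lower without overlap. The groups overlapped for *EPCAM* in both lines, at 0.997 times vehicle in ABC1 and 1.04 times in HCC4006. For *CDH1* they overlapped in ABC1, whereas in HCC4006 it was at 0.907 times vehicle without overlap. When single HCC4006 libraries were left out, *KRT7* stayed called each time, *KRT8* only without vehicle replicate 1 and *KRT18* only without DEM replicate 1. The lung lineage factor *NKX2-1* was at 42.4 to 47.1 FPKM in HCC4006 and at 0.50 to 0.76 FPKM in ABC1, and *SFTPB* was practically missing in both. The fibroblast, endothelial and leukocyte markers *DCN*, *LUM*, *PDGFRB*, *THY1*, *VWF*, *CDH5*, *PTPRC* and *CD3E* had group means of at most 0.35 FPKM, whereas *CD68* was at 89.3 to 102 FPKM in HCC4006.

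The 7 genes differed widely in level and lay on different chromosomes of GRCh37. *P4HB* (ENSG00000185624.10, chromosome 17, 79801035 to 79818732, minus strand) was the most abundant in every group, at 1626 to 3099 FPKM. In ABC1 with vehicle, the mean levels followed the order *P4HB*, *SERPINH1*, *PLOD1*, *PLOD2*, *P4HA1*, *PLOD3* and *P4HA2*, from 2122 to 15.3 FPKM, and the libraries of neighbours overlapped only for *PLOD3* and *P4HA2*. In HCC4006 with vehicle the order was *P4HB*, *SERPINH1*, *P4HA2*, *PLOD3*, *PLOD1*, *P4HA1* and *PLOD2*, from 1700 to 15.8 FPKM, with no overlap between neighbours. The mean scaled count per line in the authors' deposited tables ran from 514 for *PLOD2* in HCC4006 to 22946 for *P4HB* in ABC1, so none of the members rested on few reads.

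**Figure D1:**
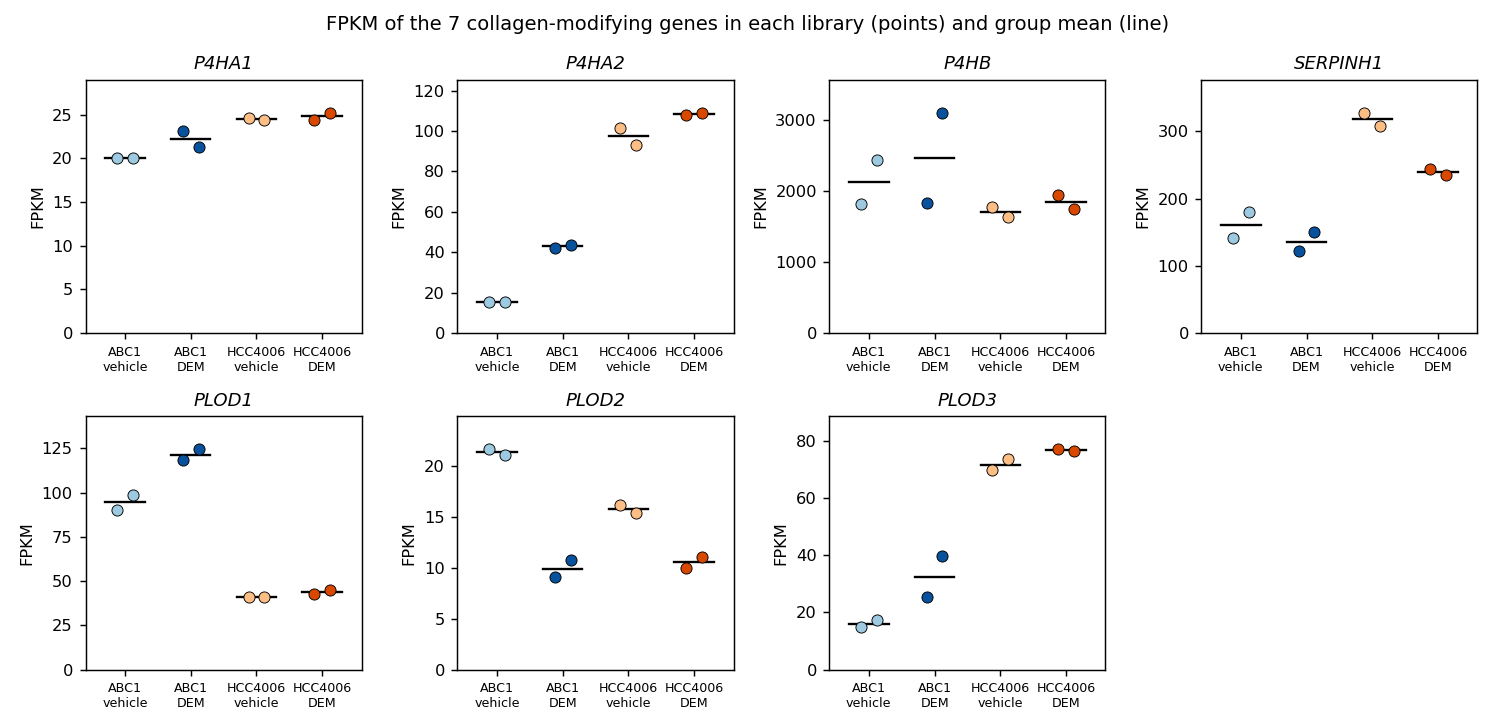
FPKM of each of the 7 genes (vertical axis, starting at 0) in the 2 libraries of each group (points) with the group mean (line). *P4HA2* with DEM in ABC1 stands at 42.2 and 43.7 FPKM against 15.4 and 15.2 with vehicle, and *PLOD2* stands lower with DEM in both lines.

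The windows upstream of the start sites of *P4HA2*, *PLOD2* and *SERPINH1* are shown because the results below turn on these genes. They are the 250 bases before the start site in the RefSeq promoter table on GRCh38.p14, written 5′ to 3′ on the strand of the gene. Capitals mark matches on either strand to the core of the hypoxia response element (ACGTG), to the heat shock element (GAANNTTC) or to the CCAAT box (CCAAT). Which start site these cells use was not measured.
*P4HA2*, chr5:132227092-132227341, minus strand: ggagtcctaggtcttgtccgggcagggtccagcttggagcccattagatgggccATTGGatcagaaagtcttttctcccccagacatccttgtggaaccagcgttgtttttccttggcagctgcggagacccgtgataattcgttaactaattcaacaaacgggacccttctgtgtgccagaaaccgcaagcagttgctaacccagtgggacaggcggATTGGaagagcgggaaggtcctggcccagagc
*PLOD2*, chr3:146161185-146161434, minus strand: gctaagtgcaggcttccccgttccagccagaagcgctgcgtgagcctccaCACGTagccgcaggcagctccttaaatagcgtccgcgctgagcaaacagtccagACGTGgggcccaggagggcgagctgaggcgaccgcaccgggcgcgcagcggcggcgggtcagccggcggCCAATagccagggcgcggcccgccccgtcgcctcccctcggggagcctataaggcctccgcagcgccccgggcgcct
*SERPINH1*, chr11:75562003-75562252, plus strand: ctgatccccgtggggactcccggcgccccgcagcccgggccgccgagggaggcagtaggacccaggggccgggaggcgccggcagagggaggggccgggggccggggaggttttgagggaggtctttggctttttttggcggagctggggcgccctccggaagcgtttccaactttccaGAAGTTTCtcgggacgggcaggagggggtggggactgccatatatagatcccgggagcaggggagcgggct

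All 7 genes had a promoter window of 300 bases in this table, which reaches 50 bases past the start site, and *SERPINH1* had a second, overlapping one. ACGTG was found at bases -200 to -196 and -146 to -142 of *PLOD2*, at bases -86 to -82 of *P4HA1* (atcgagctCACGTagcgaggg, chr10:73096940-73096960, minus strand), and in both windows of *SERPINH1* at one and the same place, 37 to 41 bases past the first start site. It was not found in the windows of *P4HA2*, *P4HB*, *PLOD1* and *PLOD3*. Over all 35116 windows of the table, 21.4% held ACGTG. GAANNTTC was found at bases -71 to -64 of *SERPINH1* and at bases 6 to 13 past the start of *PLOD1* (cccgtcgcGAAGTTTCcagccctg, chr1:11934714-11934737, plus strand), and 6.77% of all windows held it. The core of the antioxidant response element (TGACNNNGC), which 13.3% of all windows held, had no match in any window of the 7 genes, nor had the amino acid response element core (TGATGNAA, 3.62% of all windows). The ER stress element (0.0769% of all windows), a CCAAT box followed at a fixed distance by CCACG and so including the CCAAT box, had no match either. The CCAAT box was found in *P4HA2*, *P4HB*, *PLOD2* and the second window of *SERPINH1*, and in 34.6% of all windows. A match describes the letters of the window and is no evidence of binding.

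*P4HA2* (ENSG00000072682.14, chromosome 5, 131525840 to 131631008, minus strand) encodes a catalytic alpha subunit of prolyl 4-hydroxylase. In ABC1 it was at 15.4 and 15.2 FPKM with vehicle and at 42.2 and 43.7 FPKM with DEM. Both DEM libraries stood far above both vehicle libraries, the mean being 2.80 times that of vehicle and the log2 fold change 1.43. In HCC4006 *P4HA2* was at 101 and 93.3 FPKM with vehicle and at 108 and 109 FPKM with DEM, 1.11 times the vehicle mean and a log2 fold change of 0.16. The groups did not overlap in HCC4006 either, which was the case for 64.6% of all genes tested there and for 53.7% in ABC1. The *P4HA2* level of ABC1 with DEM thus remained below that of HCC4006 with vehicle.

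The rise did not extend to the other alpha subunit. *P4HA1* (ENSG00000122884.8, chromosome 10, 74766975 to 74856732, minus strand) was at 20.0 FPKM in both vehicle libraries of ABC1 and at 23.1 and 21.3 FPKM with DEM. Both DEM libraries were slightly higher, and the log2 fold change was 0.14 (95% confidence interval -0.16 to 0.44, adjusted p = 0.543 by limma). In HCC4006 *P4HA1* was at 24.6 and 24.4 FPKM with vehicle and at 24.4 and 25.2 FPKM with DEM, with overlapping groups and a log2 fold change of 0.02 (95% confidence interval -0.18 to 0.22, adjusted p = 0.886 by limma). A change of *P4HA1* of the size seen for *P4HA2* in ABC1 lay outside both intervals.

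In ABC1 the make-up of the alpha subunits moved accordingly. *P4HA2* held 43.5% and 43.2% of the summed FPKM of *P4HA1* and *P4HA2* with vehicle, and 64.7% and 67.2% with DEM. In HCC4006 its share was 80.5% and 79.3% with vehicle and 81.6% and 81.2% with DEM. The summed level of both alpha subunits in ABC1 was 35.5 and 35.3 FPKM with vehicle and 65.3 and 65.0 FPKM with DEM. These sums include *P4HA2*, whose change was known when the genes were chosen, so they too are descriptions. The remaining alpha subunit gene, *P4HA3*, was at 0.01 to 0.88 FPKM in all libraries and was not tested.

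*P4HB*, the beta subunit, which also folds disulfide bonds in many other proteins, was at 1809 and 2436 FPKM with vehicle and at 1826 and 3099 FPKM with DEM in ABC1. The groups overlapped, and the library numbered 1 was higher than the library numbered 0 under each treatment. The log2 fold change of *P4HB* was 0.18 (95% confidence interval -0.57 to 0.93, adjusted p = 0.762 by limma), and the estimate changed sign when vehicle replicate 0 (-0.03) or DEM replicate 1 (-0.20) of ABC1 was left out. In HCC4006 *P4HB* was at 1773 and 1626 FPKM with vehicle and at 1940 and 1749 FPKM with DEM, again with overlap, and its log2 fold change was 0.12 (95% confidence interval -0.07 to 0.31, adjusted p = 0.325 by limma). FPKM of *P4HB* was 51.0 and 69.1 times the sum of the alpha subunits in ABC1 with vehicle and 28.0 and 47.7 times with DEM. In HCC4006 it was 13.0 to 14.7 times that sum in all 4 libraries. The sum includes *P4HA2*, whose change was known when the genes were chosen, so these ratios are descriptions and show no change of *P4HB* itself.

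**Figure D2:**
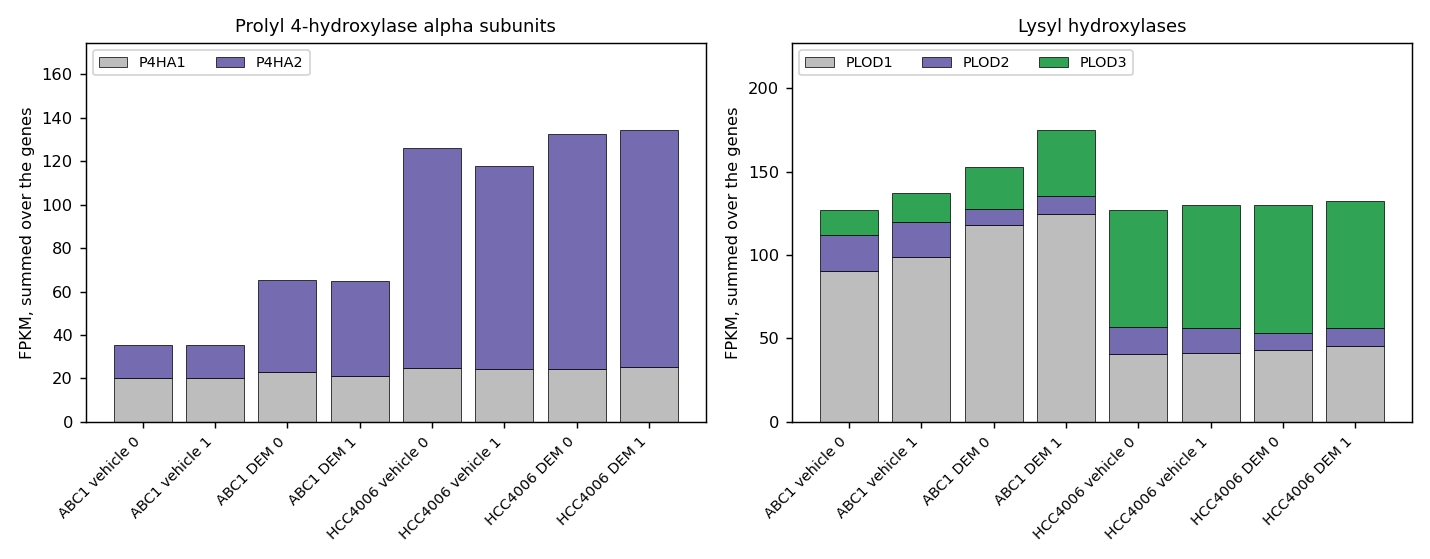
Stacked FPKM (vertical axis, starting at 0) of the alpha subunit genes (left) and of the lysyl hydroxylase genes (right) in each of the 8 libraries. The *P4HA2* part of the left bars grows with DEM in ABC1, from 15.4 and 15.2 to 42.2 and 43.7 FPKM, and *PLOD1* makes up most of the right bars in ABC1 whereas *PLOD3* makes up most of them in HCC4006.

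Among the lysyl hydroxylases, *PLOD2* fell in both lines. *PLOD2* (ENSG00000152952.7, chromosome 3, 145752926 to 145881512, minus strand), whose upstream window is printed above, was at 21.7 and 21.1 FPKM with vehicle and at 9.07 and 10.8 FPKM with DEM in ABC1. In HCC4006 it was at 16.2 and 15.4 FPKM with vehicle and at 10.0 and 11.1 FPKM with DEM. Neither line had any overlap between its groups, and the levels with DEM, which were not tested against each other, were close in ABC1 (9.93 ± 1.21 FPKM, SD, n = 2) and HCC4006 (10.55 ± 0.717 FPKM, SD, n = 2).

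With DEM the level of *PLOD2* changed on the log2 scale by -1.04 in ABC1 (95% confidence interval -1.38 to -0.70, adjusted p = 0.0431) and -0.54 in HCC4006 (95% confidence interval -0.79 to -0.29, adjusted p = 0.0197), both by limma. Of all genes tested, 1.2% were called in either direction in ABC1 and 19.1% in HCC4006, 0.435% and 10.7% were called lower, and 0.768% and 8.45% were called higher. *PLOD2* was the 1 gene called, in each line, of the 5 members whose own change had not led to their choice. Among these 5, the groups did not overlap in ABC1 for *P4HA1*, *PLOD1* and *PLOD3* (higher with DEM, beside 25.5% of all genes) and *PLOD2* (lower, beside 28.2%). In HCC4006 this held for *PLOD1* and *PLOD3* (higher, beside 29.3%) and *PLOD2* (lower, beside 35.3%). The call was lost whenever a library was left out. In ABC1 the adjusted p was then 0.315 and 0.262 without vehicle replicate 0 and 1, and 0.0827 and 0.0623 without DEM replicate 0 and 1. In HCC4006 it was 0.101 and 0.0820 without vehicle replicate 0 and 1, and 0.0850 and 0.0541 without DEM replicate 0 and 1. Over these fits the fall persisted, with log2 fold changes between -1.15 and -0.93 for ABC1 and between -0.60 and -0.48 for HCC4006. The fall was smaller in HCC4006 by 0.50 on the log2 scale (95% confidence interval 0.13 to 0.87), a difference between the lines that did not pass the test (adjusted p = 0.208 by limma), whereas 0.636% of all genes did (0.307% higher and 0.329% lower in HCC4006). None of the 5 members passed it by limma, and at an unadjusted p under 0.05 there were 2, *PLOD2* (0.0155) and *PLOD3* (0.0154).

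*PLOD3* (ENSG00000106397.7, chromosome 7, 100849258 to 100861701, minus strand) encodes a lysyl hydroxylase that also transfers sugars to hydroxylysine. In ABC1 it was at 14.95 and 17.3 FPKM with vehicle and at 25.3 and 39.6 FPKM with DEM. Both DEM libraries lay above both vehicle libraries but differed widely from each other, and the log2 fold change of 0.94 (95% confidence interval 0.38 to 1.49) was not called (adjusted p = 0.102 by limma). It was called when the spread was taken from all 8 libraries (adjusted p = 0.0201 by limma). In HCC4006 *PLOD3* was at 69.6 and 73.7 FPKM with vehicle and at 77.0 and 76.3 FPKM with DEM, and the log2 fold change was 0.10 (95% confidence interval -0.07 to 0.27, adjusted p = 0.360 by limma). The difference between the lines, -0.84 on the log2 scale for HCC4006 against ABC1 (95% confidence interval -1.47 to -0.21), was not called either (adjusted p = 0.208 by limma). Both values turned on the DEM libraries of ABC1. Without DEM replicate 1 the log2 fold change in ABC1 was 0.62 and the difference -0.53, and without DEM replicate 0 they were 1.25 and -1.15 (adjusted p = 0.0600 and 0.0503 by limma).

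*PLOD1* (ENSG00000083444.12, chromosome 1, 11994262 to 12035595, plus strand), known for the hydroxylation of lysines within the helix, was at 90.2 and 98.8 FPKM with vehicle and at 118 and 124 FPKM with DEM in ABC1. The groups did not overlap, and the log2 fold change of 0.36 (95% confidence interval 0.05 to 0.66) was not called (adjusted p = 0.178 by limma). As for *PLOD3*, it was called when the spread was taken from all 8 libraries (adjusted p = 0.0436 by limma). In HCC4006 *PLOD1* was at 40.9 and 41.0 FPKM with vehicle and at 43.0 and 45.2 FPKM with DEM, with a log2 fold change of 0.10 (95% confidence interval -0.08 to 0.28, adjusted p = 0.359 by limma). The difference between the lines was -0.26 on the log2 scale (95% confidence interval -0.55 to 0.04, adjusted p = 0.403 by limma).

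The mix of lysyl hydroxylase transcripts followed these values. *PLOD2* made up 17.1% and 15.4% of the summed FPKM of the 3 genes in ABC1 with vehicle and 5.94% and 6.17% with DEM. In HCC4006 its share was 12.8% and 11.8% with vehicle and 7.73% and 8.34% with DEM. The sum itself was 127 and 137 FPKM with vehicle and 153 and 175 FPKM with DEM in ABC1, and between 127 and 133 FPKM in all HCC4006 libraries.

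*SERPINH1* (ENSG00000149257.9, chromosome 11, 75273101 to 75283828, plus strand) was at 328 and 308 FPKM with vehicle and at 244 and 234 FPKM with DEM in HCC4006. The libraries with DEM thus lay below those with vehicle, at 0.751 times the vehicle mean, with a log2 fold change of -0.41. In ABC1 it was at 141 and 180 FPKM with vehicle and at 121 and 150 FPKM with DEM. These groups overlapped, the library numbered 1 being higher than that numbered 0 under each treatment, and the log2 fold change of -0.24 (95% confidence interval -0.68 to 0.20) was not called (adjusted p = 0.480 by limma). Between libraries with the same number, *SERPINH1* was lower with DEM by -0.21 and -0.26 in ABC1 and by -0.43 and -0.39 in HCC4006, as log2 ratios. The difference between the lines was -0.17 on the log2 scale and became 0.003 when vehicle replicate 0 of ABC1 was left out, so a fall particular to HCC4006 was not shown.

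**Figure D3:**
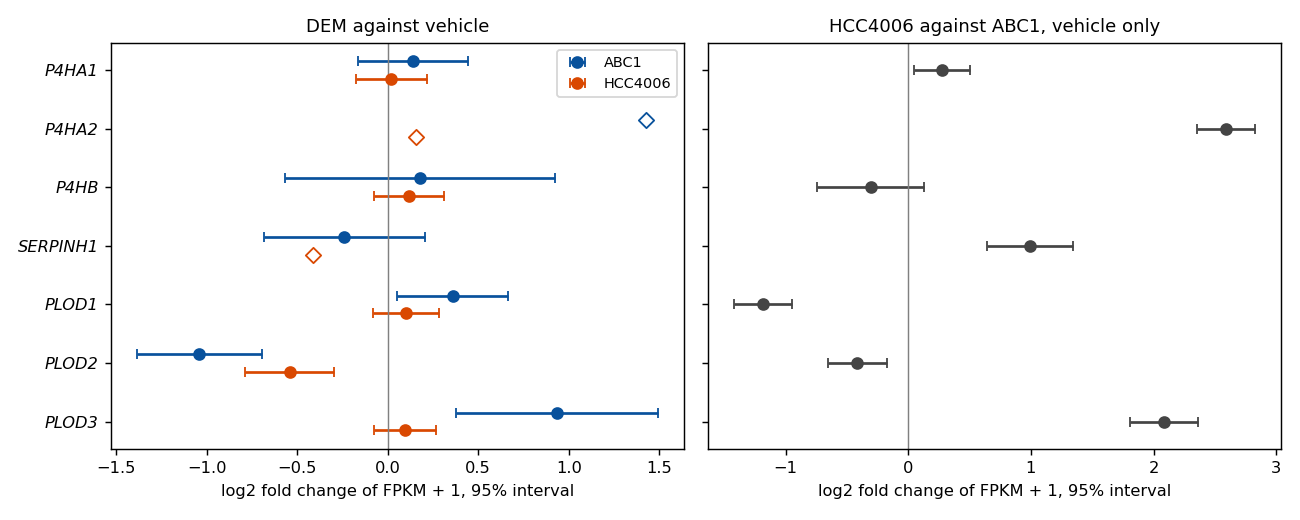
Log2 fold change of FPKM + 1 (horizontal axis) with its 95% confidence interval for each gene, for DEM against vehicle in each line (left) and for HCC4006 against ABC1 with vehicle (right). Open diamonds are the values that led to the choice of the genes and carry no interval. In the right panel the intervals of *P4HA2* and *SERPINH1* are not independent of that choice. *PLOD2* lies below 0 in both lines, at -1.04 and -0.54, and the right panel spans from -1.19 for *PLOD1* to 2.59 for *P4HA2*.

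Without DEM, the lines differed in most of the 7 genes. The choice used changes with DEM and not these levels, so all 7 were tested. The vehicle levels of *P4HA2* in both lines and of *SERPINH1* in HCC4006 are, however, the baselines of those changes. The tests of these 2 genes are therefore not independent of the choice. Their intervals and p-values are left out below, and the count of called genes includes both. With vehicle, *P4HA2*, *PLOD3*, *SERPINH1* and *P4HA1* were higher in HCC4006 than in ABC1, *PLOD1* and *PLOD2* were lower, and *P4HB* was not called. Of all genes tested, 67.7% were called, 37.3% higher and 30.4% lower, so 6 of 7 is no mark of this group. The groups did not overlap for any of the 7, 4 higher and 3 lower, which was so for 85.1% of all genes (45.6% higher and 39.5% lower). The vehicle libraries are the same as those of the comparisons with DEM.

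The largest difference was that of *P4HA2*, 97.4 ± 5.71 against 15.3 ± 0.125 FPKM (SD, n = 2 each), 6.36 times the level of ABC1 and 2.59 on the log2 scale. *PLOD3* was 4.44 times as high in HCC4006 (log2 fold change 2.09, 95% confidence interval 1.81 to 2.36, adjusted p = 6.9e-05 by limma), and *SERPINH1* 1.98 times as high (log2 fold change 0.99). *PLOD1* was at 0.433 times the level of ABC1 (log2 fold change -1.19, 95% confidence interval -1.42 to -0.95, adjusted p = 2.4e-04 by limma). The differences of *PLOD2* (log2 fold change -0.42, adjusted p = 0.0120 by limma) and *P4HA1* (0.27, adjusted p = 0.0406 by limma) were small. *P4HA1* was not called when any single vehicle library was left out, with adjusted p of 0.0599 to 0.163 by limma, nor with median-of-ratios scaling (0.0658), without a mean-variance trend (0.0570) or with the replicate number as a block (0.0975). *PLOD2* and *SERPINH1* were not called without HCC4006 vehicle replicate 0 or replicate 1. For *P4HB* the log2 fold change was -0.31 (95% confidence interval -0.74 to 0.13, adjusted p = 0.167 by limma), and it was called lower, at -0.52, without ABC1 vehicle replicate 0 (adjusted p = 0.0139 by limma).

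*PLOD1* made up 71.1% and 72.0% of the lysyl hydroxylase FPKM in ABC1 with vehicle and 32.3% and 31.5% in HCC4006 with vehicle, where *PLOD3* made up 54.9% and 56.7%. Across the 8 libraries, the genes closest in pattern to *P4HA2* among 13681 others were *SPATA2L*, the cell cycle inhibitor *CDKN1A* and *SNX8*, with Pearson's r of log2(FPKM + 1) of 0.996, 0.994 and 0.994. *PLOD3* stood at place 36 with an r of 0.979 and *P4HA1* at place 107 with an r of 0.966. *SERPINH1* had an r of 0.717 with *P4HA2*, and *P4HB*, *PLOD2* and *PLOD1* had a negative r, at -0.398, -0.586 and -0.778. Within each line, however, *PLOD1* and *P4HA2* were both higher with DEM, without overlap. Closest to *SERPINH1* were *IMP4*, *TUFM* and *KNOP1*, with an r of 0.999, 0.998 and 0.997. Of the members, *PLOD3* had an r of 0.794 with *SERPINH1*, *P4HA1* of 0.679, *PLOD2* of 0.115, *P4HB* of -0.435 and *PLOD1* of -0.928. These values describe 8 libraries of 2 lines, which share their line and their treatment.

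The other genes around collagen modification were examined in lists. Of the remaining modification and folding genes, 15 of 17 were tested in each line, and limma called 0 in ABC1, beside 1.2% of all genes. There *MIA2* went from 31.1 and 43.0 to 73.5 and 89.7 FPKM without a call (log2 fold change 1.13, adjusted p = 0.0639 by limma). In HCC4006 *MIA2*, a cargo receptor factor for procollagen export, rose from 53.5 and 50.9 to 75.9 and 70.5 FPKM (log2 fold change 0.48, adjusted p = 0.0127 by limma), and *P3H4*, a partner of lysyl hydroxylation, fell from 40.5 and 35.7 to 25.1 and 26.7 FPKM (log2 fold change -0.54, adjusted p = 0.0172 by limma). The 1 higher and 1 lower of 15 in HCC4006 stand beside 8.45% and 10.7% of all genes. The list had a median log2 fold change of -0.09 (ABC1) and -0.05 (HCC4006), beside -0.02 and -0.03 over all genes. The call of *MIA2* held only without DEM replicate 1 and that of *P3H4* only without vehicle replicate 1 when single HCC4006 libraries were left out, with adjusted p of up to 0.0801 and 0.0885 by limma.

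The prolyl 3-hydroxylation complex of *P3H1*, *CRTAP* and *PPIB* had log2 fold changes of -0.24, -0.15 and -0.09 in ABC1 and of 0.00, -0.33 and 0.07 in HCC4006, with none of them called. The same held for *FKBP10*, a prolyl isomerase that acts with *PLOD2*, at -0.47 and -0.25, and for *COLGALT1*, which adds galactose to hydroxylysine, at -0.18 and -0.16. For *FKBP10* the 95% confidence interval was -0.84 to -0.10 in ABC1 (adjusted p = 0.160) and -0.43 to -0.07 in HCC4006 (adjusted p = 0.0645), both by limma.

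The collagen chains, which are the substrate of these enzymes, were sparse in ABC1. The summed FPKM of 21 collagen genes was 35.8 and 51.0 with vehicle and 27.4 and 37.2 with DEM in ABC1, and 340 and 328 with vehicle and 248 and 248 with DEM in HCC4006. In HCC4006, 6 of the 15 chains tested were called lower and 0 higher, beside 10.7% of all genes called lower there, and the list median was -0.39. *COL4A2* and *COL4A1*, the chains of basement membrane collagen and the most abundant in HCC4006, fell from 146 and 141 to 109 and 111 FPKM and from 45.6 and 44.7 to 24.4 and 24.3 FPKM. Their log2 fold changes were -0.39 (adjusted p = 0.0140 by limma) and -0.87 (adjusted p = 0.00251 by limma). *COL16A1*, *COL5A1* and *COL7A1* fell as well, by 0.74, 0.58 and 0.51 on the log2 scale, and so did *COL17A1*. With any single HCC4006 library left out, *COL4A1* stayed called, whereas the number of chains called lower fell to 1 or, without DEM replicate 1, to 2, and *COL4A2* was at an adjusted p of 0.0516 to 0.0894 by limma.

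In ABC1, 10 chains were tested and 0 were called, beside 1.2% of all genes, with a list median of -0.21. The means of *COL16A1*, *COL5A1* and *COL17A1* with DEM were 0.234, 0.656 and 0.666 times vehicle there, and 0.512, 0.658 and 0.721 times in HCC4006. In ABC1 the groups overlapped for *COL5A1* and *COL17A1* but not for *COL16A1*, and *COL7A1* was higher with DEM, at 1.89 times without overlap. *COL4A1* and *COL4A2* were at no more than 0.16 FPKM in that line. Its most abundant chains were *COL17A1*, at 4.86 and 16.3 FPKM with vehicle and 2.72 and 11.4 with DEM, and *COL12A1*, at 10.2 and 7.51 FPKM with vehicle and 8.90 and 7.11 with DEM. With vehicle, 12 of 14 chains tested were higher in HCC4006 than in ABC1 and 1 was lower, beside 37.3% and 30.4% of all genes. Of those tested, *COL4A1*, *COL4A2*, *COL6A2* and *COL13A1* averaged 0.12, 0.13, 0.33 and 0 FPKM in ABC1 with vehicle. They passed the expression minimum only through HCC4006, so their direction was set in advance.

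Of the 13 genes for procollagen processing and cross-linking, 5 were tested and 0 called in ABC1, beside 1.2% of all genes. In HCC4006, 10 were tested, *LOXL2*, a lysyl oxidase that starts cross-links, and *TGM2*, a transglutaminase, fell by 0.51 and 1.13 on the log2 scale (adjusted p = 0.0142 and 0.00544 by limma), and *PCOLCE2*, an enhancer of procollagen cleavage, rose by 0.60 (adjusted p = 0.0234 by limma). When single HCC4006 libraries were left out, *TGM2* stayed called each time, and *LOXL2* and *PCOLCE2* only without DEM replicate 1. The 2 lower and 1 higher of 10 stand beside 10.7% and 8.45% of all genes. The list median was -0.42 in ABC1 and -0.38 in HCC4006.

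**Figure D4:**
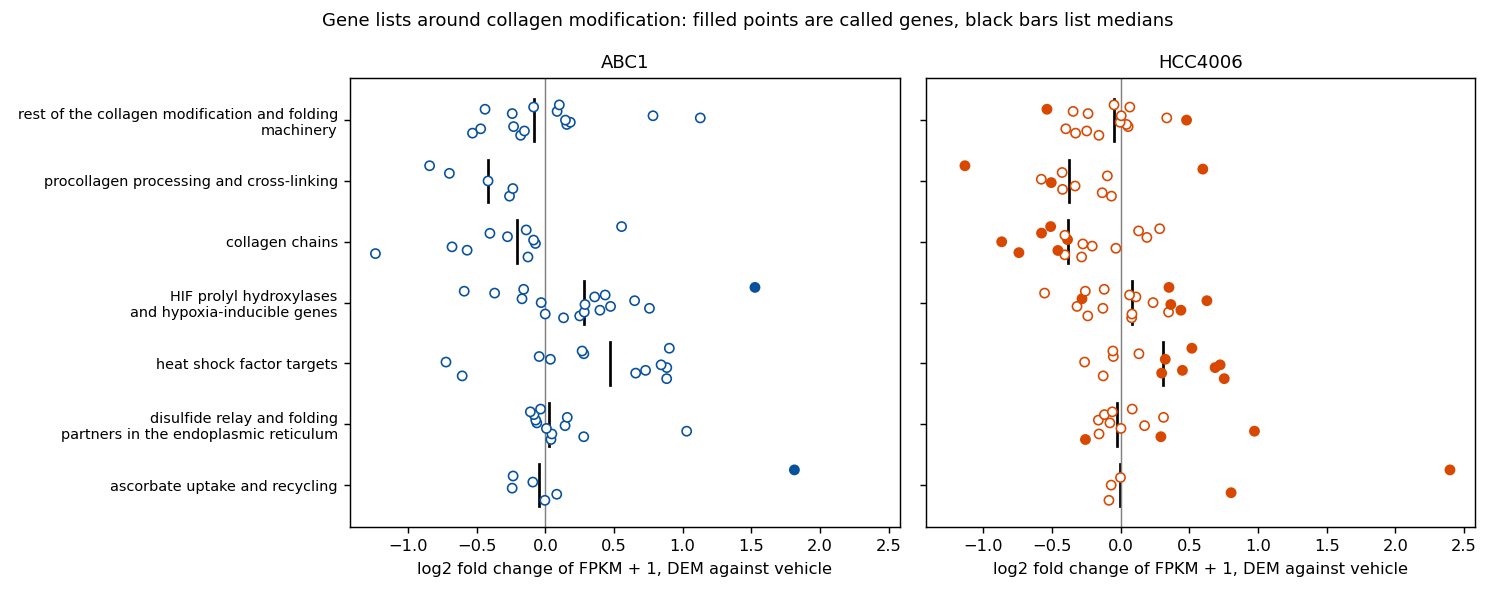
Log2 fold change of FPKM + 1 with DEM (horizontal axis) for the genes tested in each list around collagen modification, in ABC1 (left) and HCC4006 (right). Filled points are genes called by limma and black bars the list medians. In HCC4006 the bar of the collagen chains lies at -0.39, and that of the heat shock factor targets at 0.31.

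Hypoxia-inducible genes were listed because *P4HA1*, *P4HA2* and *PLOD2* are known to belong to them. The same list holds the hypoxia-inducible factor HIF and its regulators, among them *HIF1A* and *EGLN2*, so its counts are not of hypoxia-inducible genes alone. Of 17 tested, 1 was called higher in ABC1 and none lower, and in HCC4006 4 were higher and 1 lower. Over all genes, 0.768% were called higher and 0.435% lower in ABC1, and 8.45% and 10.7% in HCC4006. *VEGFA*, an angiogenic growth factor, rose from 53.8 and 55.5 to 160 and 159 FPKM in ABC1 (log2 fold change 1.53, 95% confidence interval 1.24 to 1.81, adjusted p = 0.0153 by limma). That call was lost without vehicle replicate 0 (adjusted p = 0.181) or vehicle replicate 1 (adjusted p = 0.137 by limma). In HCC4006 *VEGFA* rose from 73.6 and 66.2 to 94.95 and 84.0 FPKM (log2 fold change 0.35, adjusted p = 0.0489 by limma), a call lost without any single library of the line (adjusted p from 0.0664 without DEM replicate 1 to 0.214 without vehicle replicate 1). The prolyl hydroxylase of HIF *EGLN2*, the histone demethylase *KDM3A* and *HIF1A* itself rose in HCC4006 by 0.44, 0.63 and 0.36 on the log2 scale, and *LDHA* fell by 0.28. Their means with DEM were 1.37, 1.59, 1.29 and 0.82 times those with vehicle. In ABC1 these ratios were similar, at 1.32, 1.62, 1.22 and 0.90, with overlap only for *LDHA* and with none of them called. Other listed genes went the other way. *PDK1*, *PFKFB4* and *SLC2A1* were at 0.683, 0.613 and 0.894 times vehicle in ABC1 and at 0.591, 0.798 and 0.919 times in HCC4006. They did not overlap in either line (beside 28.2% and 35.3% of all genes lower) and were not called. Of the 17 log2 fold changes, 11 were positive and 6 negative in ABC1, and 10 and 7 in HCC4006. At most 1 gene of the list was called higher when any single HCC4006 library was left out. *EGLN1* had log2 fold changes of 0.28 and 0.35 and *EGLN3* of 0.76 and -0.13 in ABC1 and HCC4006, none of them called.

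The heat shock factor targets were listed because *SERPINH1* is known as one of them. All 12 were tested, and in HCC4006 7 were called higher and none lower, beside 8.45% and 10.7% of all genes. The log2 fold change was negative for 4 of the 12 in HCC4006, none of them called. *BAG3*, *HSPH1* and the near-identical *HSPA1A* and *HSPA1B*, whose reads may be split between them, had log2 fold changes of 0.75, 0.52, 0.69 and 0.72 there, whereas that of *SERPINH1* was -0.41. Without vehicle replicate 0 or DEM replicate 0 of HCC4006 there were 3 called, without DEM replicate 1 there were 2, and without vehicle replicate 1 only *BAG3* was called. In ABC1, 0 were called, beside 1.2% of all genes, with a list median of 0.47 and with 9 log2 fold changes positive and 3 negative. *BAG3*, *HSPH1*, *HSPA1A* and *HSPA1B* were at 1.87, 1.88, 1.84 and 1.80 times the vehicle mean in ABC1, without overlap. In HCC4006 these ratios were 1.70, 1.44, 1.63 and 1.74. *CRYAB* and *HSPA4L* were lower without overlap in ABC1, at 0.440 and 0.588 times vehicle. Of all genes in ABC1, 25.5% were higher and 28.2% lower without overlap.

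The disulfide relay and folding partners of *P4HB* had a list median of 0.02 in ABC1, where 0 of 12 were called, beside 1.2% of all genes. In HCC4006 the median was -0.03, and 2 of 12 were called higher and 1 lower, beside 8.45% and 10.7% of all genes. There the lectin chaperone *CANX* rose by 0.29 on the log2 scale, and its soluble relative *CALR* fell by 0.26. *ERO1B*, an oxidase of protein disulfide isomerase, rose by 0.97 to 2.32 and 2.35 FPKM in HCC4006 (adjusted p = 0.0320 by limma). Its vehicle mean was only 0.719 FPKM. It thus passed the expression minimum only through the DEM libraries, so its direction was set in advance and the call carries little weight. In ABC1 *ERO1B* went from 3.27 and 5.29 to 8.39 and 10.9 FPKM, 2.26 times vehicle without overlap, and was not called. The calls of *CANX* and *CALR* were lost without any single HCC4006 library, with adjusted p of up to 0.154 and 0.168 by limma, and that of *ERO1B* was kept only without vehicle replicate 1. *ERO1A* and *HSPA5* had log2 fold changes of 0.05 and 0.14 in ABC1 and -0.16 and 0.17 in HCC4006, none of them called. Of the genes for ascorbate uptake and recycling, *TXNRD1* rose in both lines by 1.81 and 2.40 on the log2 scale (in ABC1 lost without vehicle replicate 0 or 1, adjusted p = 0.201 and 0.127 by limma) and *GLRX* by 0.80 in HCC4006. These were 1 of 6 genes tested in ABC1 and 2 of 5 in HCC4006, beside 0.768% and 8.45% of all genes called higher. The ascorbate transporter *SLC23A2* had log2 fold changes of -0.09 and -0.0017, and *SLC23A1* was at no more than 0.13 FPKM in the mean of any group.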

How the data were processed

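Expression was analysed in 8 RNA-seq libraries from polyA-selected, strand-specific preparations. Per the paper's methods the authors aligned the reads to hg19 with TopHat and estimated FPKM with Cufflinks, whereas the submitters' processing notes list STAR 2.5.3a, Cuffnorm and HTSeq. The files thus hold deposited FPKM values and no counts per library. Of the authors' deposited comparison tables, only the base mean, a normalized signal averaged over the 4 libraries of a line, was used. These base means summed to 13786938 in ABC1 and 13957320 in HCC4006. The remaining columns, the authors' fold changes and p-values, were not used. The depth of each library is unknown, and no counting error is given. The sum of FPKM varied by 1.18 times at most between libraries.

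Symbols were found for 55534 of 57815 identifiers. DEM was compared with vehicle in each line, HCC4006 with ABC1 among vehicle libraries, and the responses of the lines with each other (all 8 libraries), by limma 3.58.1 in R 4.3.3 applied to log2(FPKM + 1). The prior variance followed the mean level, and genes averaging under 1 FPKM in the libraries fitted were left out. The pseudocount understates the change of low genes. P-values were Benjamini-Hochberg adjusted over all genes, with a threshold of 0.05. The steps were tested on simulated data. SDs are those of 2 FPKM values. The paper calls the libraries of a group biological duplicates.

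The 7 genes, the lists and the motifs were chosen with earlier results of these data known. The named genes are the 7 members, the set partners in each list, at most 4 called genes per list, line and direction with the largest change, the 2 most abundant collagen chains per line, *NQO1* and *HMOX1*, and the 3 genes closest in pattern to *P4HA2* and to *SERPINH1*. Some listed genes that went the other way are named beside them. Gene positions are those of GENCODE on GRCh37, the assembly that hg19 names. *PECAM1*, a listed endothelial marker, was not matched to an identifier. Alternatives were other pseudocounts, expression minimums and scaling, no trend, one model of all 8 libraries, the replicate number as a block, and each library left out.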

Additional observations from a re-analysis of the deposited data

Results flagged for a closer look

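The response of *VEGFA* to DEM differed between the lines by the test of the difference itself, being lower in HCC4006 than in ABC1 by -1.18 on the log2 scale (95% confidence interval -1.50 to -0.85, adjusted p = 0.0232 by limma). Levels with DEM were above those with vehicle in each line, without overlap. The difference kept its direction but not its call when any single library was left out, with values from -1.26 to -1.09 and adjusted p from 0.0503 without ABC1 DEM replicate 0 to 0.154 without HCC4006 vehicle replicate 0. With the replicate number as a block the adjusted p was 0.0513 by limma. None of the 5 members of the collagen group that were tested for such a difference passed the threshold, with 2 of them, *PLOD2* and *PLOD3*, at an adjusted p of 0.208.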

How the results depend on the processing

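The number of the 5 tested members called by limma with DEM in ABC1 was 1, and it became 0 without an expression minimum and without a mean-variance trend. It became 3, with *PLOD1* and *PLOD3* added, in one model of all 8 libraries and with the replicate number as a block. In HCC4006 the number was 1, and 0 without an expression minimum. Leaving out 1 library gave 0 to 0 in each line, and for HCC4006 against ABC1 with vehicle 3 to 6 instead of 6, with 3 without either HCC4006 vehicle library. That number was 5, without *P4HA1*, with median-of-ratios scaling, without a trend and with the block. None of the 5 tested members was called for the difference between the lines under any alternative that was run, and over all genes its 42 higher and 45 lower calls became 11 and 9 with a pseudocount of 0.1, 24 and 27 with 0.5, 173 and 230 without a minimum, 1 and 2 with the block, and 0 to 17 and 2 to 27 with 1 library left out. The causes were not tested. Over all genes, 97 higher and 55 lower calls in ABC1 became 0 and 0 without a minimum, 27 and 6 without a trend, 158 and 93 with median-of-ratios scaling, 779 and 788 in one model, 1185 and 1163 with the block, 137 and 94 with a minimum of 5 FPKM, and 10 to 51 and 8 to 18 with 1 library left out. In HCC4006, 1144 higher and 1447 lower became 177 and 193 without a minimum, 1289 and 1231 with the scaling, and 290 to 464 and 344 to 564 with 1 library left out. Libraries of one number are not known to be paired, with correlations of their deviations between vehicle and DEM of 0.257 in ABC1 and 0.0538 in HCC4006. With 1 library left out, log2 fold changes with a change of sign ranged from -0.20 to 0.56 for *P4HB* in ABC1, from -0.0045 to 0.042 for *P4HA1* in HCC4006, and for the difference between the lines from -0.44 to 0.32 for *P4HB* and from -0.35 to 0.0033 for *SERPINH1*. A group left with 1 library was assumed to vary like the others. With 2 libraries per group and no counts, small changes were not detectable.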
